A study of Mus musculus with 4 samples.

Results

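The Wnt6 side of the inversion breakpoint is the stretch of 100 kb on mouse chromosome 1 from 74730001 to 74830000 (build mm9), which ends where the InvF inversion begins and which holds Wnt6. It was chosen by position as 10 bins of 10 kb out of the 1000 bins of the map, which runs from 71000001 to 81000000. All pairs of these bins with any bin of the map at least 20 kb away on every allele were used, which gave 9933 of the 498501 such pairs of the map in WT order. Of these, 289 pairs joined the window to the 29 bins from 75610001 to 75900000, the last part of the inverted interval, called the edge block here, and 9644 joined it to all other partners. On the InvF allele the edge block is turned so that its right end adjoins the window. The positions of both the inversion and the edge block came from earlier results on these maps. The inversion was located again in the InvF map, at 74830001 to 75900000.

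The maps are capture Hi-C maps, in which crosslinked and religated DNA is enriched with probes and each count is a read pair that joins a pair of bins. The tissue was the distal part of the developing limb of mice at E11.5, and there was 1 library each of wild type (WT) and of homozygous DelB, DelBs and InvF mutants. DelB lacked 76390001 to 78060000 and DelBs lacked 76390001 to 77860000, so both keep the window and the edge block in place, 790 to 1160 kb apart. InvF deletes nothing and brings the same pairs to 20 to 380 kb. The sources used here do not say how many embryos went into a library.

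Wnt6 encodes a secreted WNT ligand, a protein that binds Frizzled receptors on neighbouring cells and, in the limb, is made in the ectoderm. Epha4 encodes an ephrin receptor of the limb mesenchyme and lies in a large chromatin domain with limb enhancers. Domains are stretches whose segments meet each other more often than they meet segments across a border. From published work on this locus, inversions that join Wnt6 to part of the Epha4 domain are linked to Wnt6 expression in the wrong part of the limb and to malformed digits. Expression was not measured in these files.

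Next to Wnt6 (gene ID 22420) in RefSeq's GRCm38 gene table, which was used for order alone, are Prkag3 and then Cyp27a1 on one side and Wnt10a and then Cdk5r2 on the other. Cyp27a1 encodes a sterol hydroxylase, Prkag3 a regulatory subunit of the AMP-activated kinase, Wnt10a another WNT ligand and Cdk5r2 an activator of the kinase Cdk5. Where each lies against the breakpoint in mm9 was not checked. The promoter of Wnt6 is shown because it is the element of the gene whose neighbours on the chromosome change, although bins of 10 kb do not resolve it. These are the 250 bases before the start in RefSeq (GRCm38, chr1:74771642-74771891, plus strand, 5′ to 3′), with matches to GGGCGG on either strand in capitals:

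Wnt6 promoter: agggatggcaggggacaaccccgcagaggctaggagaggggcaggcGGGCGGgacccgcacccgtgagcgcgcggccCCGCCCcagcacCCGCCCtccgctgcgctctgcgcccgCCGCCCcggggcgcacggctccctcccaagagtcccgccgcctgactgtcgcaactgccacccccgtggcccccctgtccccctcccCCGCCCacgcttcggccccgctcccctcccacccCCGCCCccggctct

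The stretch held 6 matches to this motif, the core of the GC box, and 79.6% of its bases were G or C. Of 27025 promoters of the same length, 1 per gene, 32.9% held the motif and the median share of G and C was 52.0%.

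The total of counts ran from 5155274 in WT to 6073471 in InvF. In pairs at least 20 kb apart on every allele, the window took part in 86798 of them in InvF, 55910 in WT, 75702 in DelB and 83404 in DelBs. Ratios to WT were scaled with the counts of pairs that no rearrangement touches, which gave factors of 1.433, 1.497 and 1.244 for DelB, DelBs and InvF. Each genotype has a single library, so the spread between embryos is unknown and no p-value can be given, and each range in brackets is a 95% interval of counting error alone. Scaled in this way, the window as a whole met the map 1.248 times as often in InvF as in WT.

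The edge block changed from a rare partner of the Wnt6 window to its main one in InvF. The window and the edge block shared 29914 counts in InvF, against 769 in WT, 1102 in DelB and 1197 in DelBs. InvF stood far above the other libraries, which were close to one another once their depth was taken into account. The scaled ratio to WT was 31.3 in InvF (29.1 to 33.6), 1.00 in DelB (0.911 to 1.10) and 1.04 in DelBs (0.949 to 1.14). Per pair of bins the scaled level was 2.66 counts in WT and 83.2 in InvF. With the total of all counts as the scale, the ratio was 33.0 in InvF, 1.33 in DelB and 1.38 in DelBs, so whether DelB and DelBs were level with WT depends on the scale.

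A measure that needs no scaling gave the same picture. Of the counts of the window in pairs at least 20 kb apart, the edge block took 34.5% in InvF, but 1.38% in WT, 1.46% in DelB and 1.44% in DelBs. With the scaling above, all other partners together stood at 0.830 times WT in InvF (0.820 to 0.839), 0.944 times in DelB (0.933 to 0.954) and 0.996 times in DelBs (0.985 to 1.01). For DelB and DelBs, these other partners and the totals behind the shares include sequence that the allele lacks. The ratio to WT of the edge block was therefore 37.7 times that of all other partners in InvF (35.1 to 40.5), 1.06 times in DelB (0.965 to 1.16) and 1.04 times in DelBs (0.953 to 1.14).

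**Figure D1:**
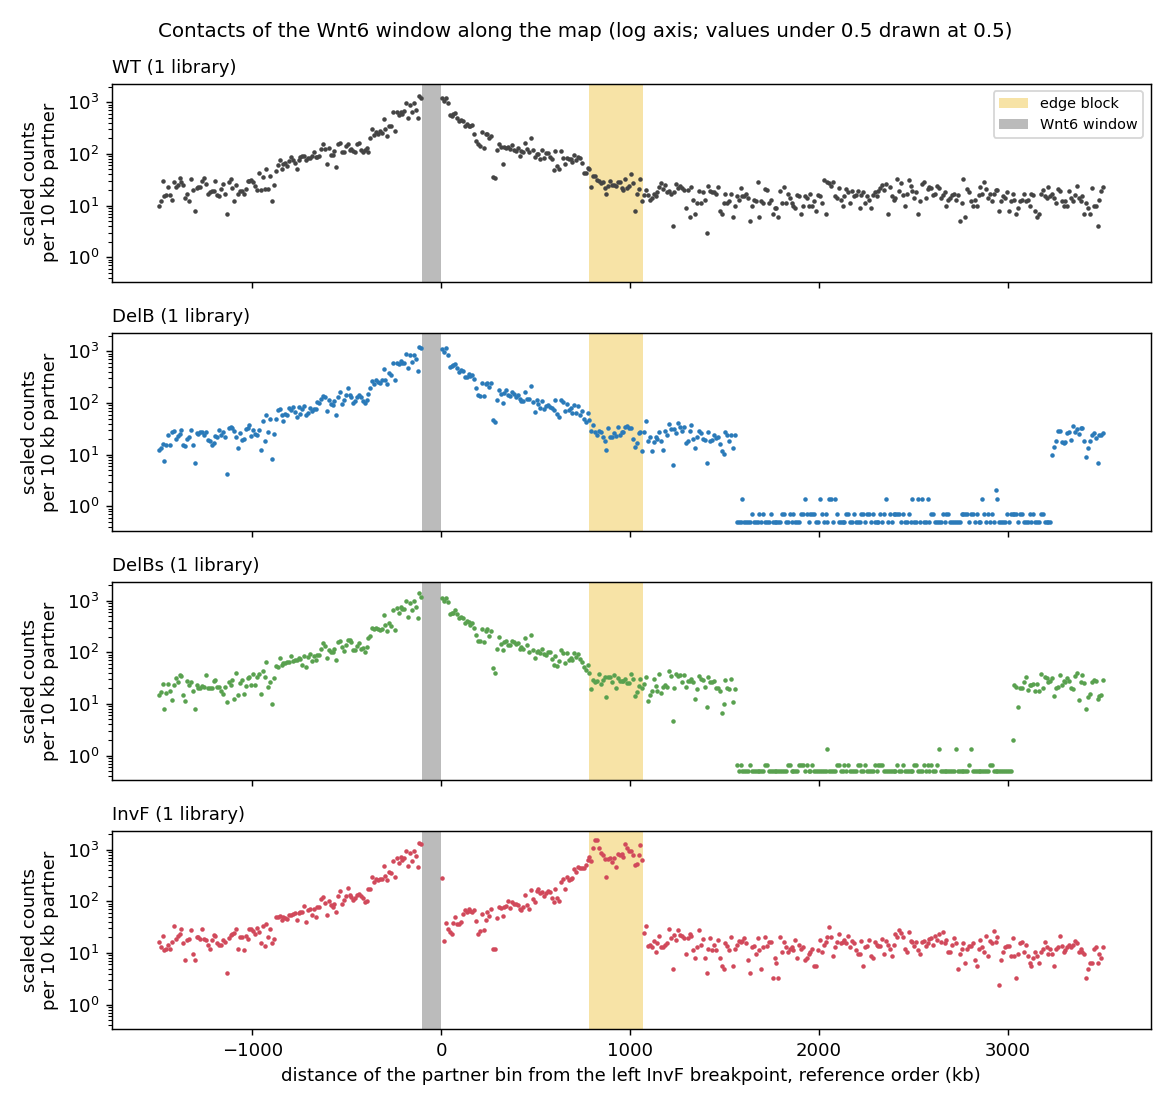
Scaled counts of the Wnt6 window (grey) with each 10 kb partner bin, on a log axis, against the distance of the partner from the left InvF breakpoint in reference order, with 1 panel per library and each point a partner bin. The edge block (yellow) is a low plateau in WT, DelB and DelBs and the highest stretch to the right of the window in InvF, while the deleted stretch of DelB and DelBs is nearly empty.

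Every bin of the edge block took part. A partner bin was tested where 1 of the compared libraries had at least 20 counts with the window, and was called where the scaled counts, plus 1, differed by over 2-fold. All 29 bins of the edge block were over 2-fold higher in InvF, against 6.83% of all combinations of a 100 kb window and a 10 kb partner bin over the map. Their counts with the window ran from 363 to 1906 in InvF, against 8 to 52 in WT, 17 to 66 in DelB and 20 to 60 in DelBs. The lowest InvF bin lay above the highest bin of every other library. The ratio of InvF to WT per bin ran from 14.01 at 75610001 to 75620000 (10.6 to 18.9) to 62.3 at 75850001 to 75860000 (31.4 to 145), where WT had 8 counts.

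For the deletions, the pairs needed 20 kb on the WT and the mutant allele alone, which keeps 1 pair that InvF brings too close. By contrast with InvF, 0 of the 28 tested edge bins in DelB and 0 of the 29 in DelBs passed 2-fold in either direction. Over the map, 11.9% of the combinations were higher and 0.399% lower in DelB, and 10.7% were higher and 0.527% lower in DelBs.

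The level within the edge block did not simply fall with distance from the junction. The counts of InvF with the window were 776 in the bin at the junction, 1540 in the next and 620 in the bin that begins 40 kb away, and they rose to 1576 at 90 kb. The value at the junction leaves out the pair under 20 kb, with which it was 1276, and this bin is split by the break. The counts were 363 in the bin at 190 kb, which had the lowest total of all edge bins in WT (4878 counts), and rose to 1906 in the bin at 250 kb and 1891 in that at 240 kb. The highest counts thus lay near the far end of the block, not at the junction.

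**Figure D2:**
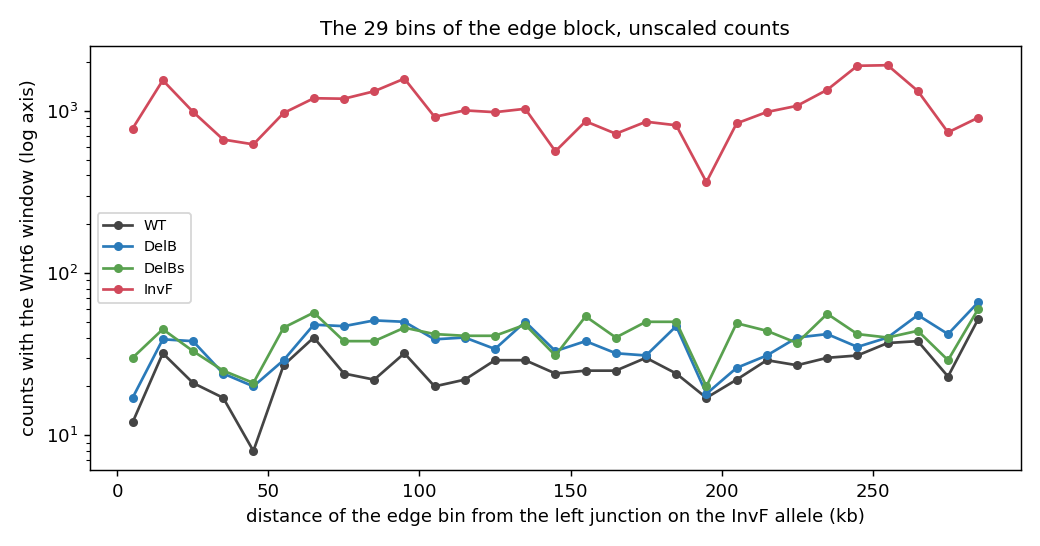
Unscaled counts of the Wnt6 window with each of the 29 bins of the edge block, on a log axis, against the distance of the bin from the left junction on the InvF allele. InvF runs from 363 to 1906 counts with its highest points at 240 and 250 kb, and WT, DelB and DelBs stay between 8 and 66.

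This local maximum, in the 4 bins from 75630001 to 75670000, was singled out after the values were seen. Here the window had 6464 counts in InvF, against 136 in WT, 172 in DelB and 182 in DelBs. To compare stretches at different distances, counts were divided by the library's own mean for pairs equally far apart on the allele. The mean was taken where no rearrangement lies between the bins. In a simulated inversion without excess, this gave 1.46 for the edge block, so there 1 was not the level of no excess. The simulation held a smooth decay and the coverage of WT but no domains. For the 4 bins, the level for the distance was 5.07 times the mean in InvF (4.95 to 5.20), against 1.54 times in the rest of the edge block (1.52 to 1.56). In WT it was 0.419 (0.352 to 0.496) against 0.352 (0.325 to 0.380), with intervals that overlap. The 4 bins had a median total of 12908 counts in InvF against 12652 for the other edge bins, and with the coverage of both bins in the expected level the values were 3.34 and 1.05.

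The maximum was sharpest for the bins of the window next to the breakpoint. The pair with the highest level for its distance joined 74810001 to 74820000 with 75650001 to 75660000, at 260 kb on the InvF allele. It held 3 counts in WT and 439 in InvF, 12.1 times the mean at that distance (11.01 to 13.3). The next pair joined the same window bin with 75640001 to 75650000, with 5 counts in WT and 356 in InvF (10.3 times the mean). The 5 highest pairs all joined the last 3 bins of the window with 75640001 to 75660000. The last 3 bins, from 74800001 to 74830000, met the 4 bins of the maximum at 7.03 times the mean (6.78 to 7.29), and the first 7 bins of the window at 4.09 times (3.95 to 4.22).

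The 289 pairs between window and edge block held 7 to 476 counts each in InvF, with a median of 87, and 0 to 8 in WT, with a median of 2. In WT 23 of these pairs had no count and in InvF 0. By distance alone, their level in InvF ranged from 0.202 to 12.1 times the mean with a median of 1.74, and 220 of the 289 stood above 1. The share above 1 among other pairs at these distances was not counted. With coverage, the edge block without the maximum stood at 1.05, but that coverage came from the InvF bin totals, which include the gained contacts. All 289 pairs thus held counts in InvF, with the maximum on top, but a raised level over the rest of the block is not settled.

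The 10 bins of the window differed in how much they gained. The 5 bins farthest from the breakpoint, from 74730001 to 74780000, had 35 to 90 counts with the edge block in WT and 915 to 2373 in InvF. Their ratios of InvF to WT lay between 19.6 and 22.3 with intervals that overlap. The bins at 74780001 and 74790001 had 94 and 88 counts in WT and 3502 and 3104 in InvF, with ratios of 29.96 (24.4 to 37.2) and 28.4 (23.0 to 35.5). The last 3 bins had 60, 79 and 94 counts in WT and 3279, 5445 and 5458 in InvF, with ratios of 43.9 (34.1 to 57.7), 55.4 (44.4 to 70.1) and 46.7 (38.1 to 57.9). The intervals of the last 3 overlap one another, so their order is not settled, but all 3 lie above those of the first 5.

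The share of each bin's own counts that fell in the edge block rose steadily towards the breakpoint in InvF. The share was taken over pairs at least 20 kb apart on every allele. It was 18.3% in the first bin of the window and 54.4% in the last, where the edge block took more of these counts than all other partners together. Nearer pairs bring the total of the last bin in InvF to 13207 counts, so this does not extend to all its counts. In WT the same share lay between 0.930% and 1.53%, in DelB between 0.992% and 1.62% and in DelBs between 1.09% and 1.55%. In InvF every bin of the window was thus above every bin of the other libraries. The bin from 74750001 to 74760000 had the lowest total with nearer pairs included (4334 counts in WT). Its ratio of 21.0 (15.0 to 30.4) lay among those of its neighbours.

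**Figure D3:**
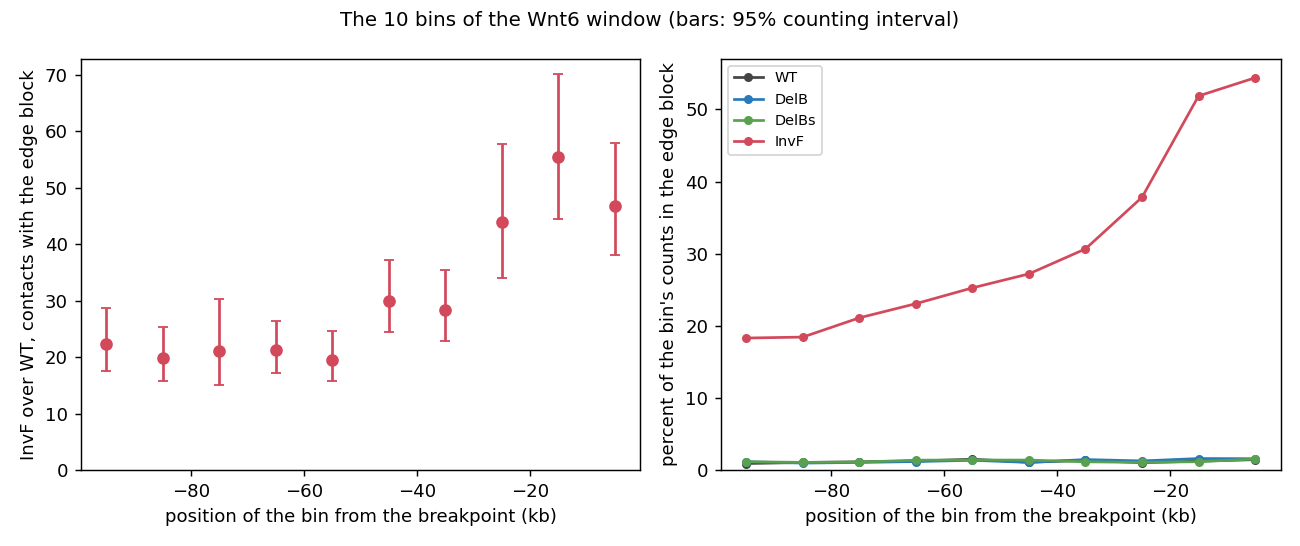
The 10 bins of the Wnt6 window by position from the breakpoint. On the left is the ratio of InvF to WT of the contacts with the edge block, with 95% counting intervals. On the right is the percent of each bin's counts, in pairs at least 20 kb apart, that lie in the edge block, by library. Both rise towards the breakpoint in InvF, to 54.4% in the last bin, while WT, DelB and DelBs lie between 0.930% and 1.62%.

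The sequence that follows the window in WT was moved away from it in InvF. Its old neighbour, the 290 kb from 74830001 to 75120000, shared 1876 counts with the window in InvF, against 12449 in WT, 16882 in DelB and 18946 in DelBs. InvF alone was low, and its counts include 357 in the bin from 74830001 to 74840000, which is split by the break. The ratio to WT was 0.121 in InvF (0.115 to 0.127), 0.946 in DelB (0.924 to 0.968) and 1.02 in DelBs (0.994 to 1.04). Each of the 10 bins of the window lost these contacts, from a ratio of 0.186 at 74750001 (0.145 to 0.236) to 0.0575 in the bin at the breakpoint (0.0484 to 0.0680).

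The new neighbour met the window more often than the old one had at the same place. On each allele, the 290 kb next to the window lie at the same distances of 20 to 380 kb. The window had 12449 counts with its own neighbour in WT and 29914 with the edge block in InvF, and scaled levels per pair of 43.1 and 83.2. Relative to the mean at that distance, the old neighbour stood at 0.935 in WT (0.919 to 0.952) and the edge block at 1.81 in InvF (1.79 to 1.83). The 290 kb to the left of the window, from 74440001 to 74730000, have the same distances and serve as a comparison within the same library. They stood at 1.15 times the mean in WT and 1.17 times in InvF (1.16 to 1.19).

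These levels depend on how uneven coverage is treated. In the simulated inversion without excess, the edge block stood at 1.46 by distance alone and 0.804 with coverage. Levels of either kind are thus not to be read against 1. The simulation held no domains, and its true ratio to WT was 6.47, so 1.46 and 0.804 are not levels of no excess for these maps. With the coverage of both bins in the expected level, the edge block stood at 1.23 in InvF, the left 290 kb at 1.08 in InvF and 1.297 in WT, and the old neighbour in WT at 0.885. With balanced values they were 1.39, 1.11, 1.21 and 0.874. The edge block thus stayed above the old neighbour, but with coverage it lay below the left 290 kb of WT, and without the 40 kb of the local maximum (1.05) also below that of InvF. Coverage was taken from each library's own bin totals, which in InvF include the contacts gained with the edge block. With coverage the left 290 kb were lower in InvF than in WT, although their scaled ratio of counts was 1.01. The order with coverage is therefore not settled. In WT, at its full distance, the edge block stood at 0.362 times the mean (0.337 to 0.388), and leftward partners of the window at the same 790 to 1160 kb at 0.389 (0.366 to 0.413). By distance alone, the window thus met the edge block in WT about as seldom as it met sequence equally far to its left. With coverage the edge block in WT was at 0.245, and no such level was computed for the leftward partners.

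Earlier results on these maps placed a domain border of WT after 75610000, where the edge block ends. Read along the InvF allele, the counts per pair of the window were high over the 300 kb up to this former border and lower beyond it. In steps of 50 kb from the junction, the scaled counts per pair in InvF were 75.2, 100.3, 72.2, 58.1, 98.5 and 90.9 up to 300 kb. They were 46.0, 31.7, 21.5 and 13.0 over the next 4 steps, all beyond the border, which the step before them already crosses by 1 bin. WT, read in its own order, fell earlier and then levelled off, with 101.4, 53.8, 39.5, 25.7, 20.6 and 12.2 up to 300 kb and 12.5, 12.8, 12.0 and 12.9 over the next 4 steps. InvF was below WT in the first step and above it in each step from 50 to 450 kb. Beyond 500 kb InvF was below WT only at 700 to 750 kb (7.74 against 8.20). It was above WT elsewhere, with 14.55 against 9.66 at 500 to 550 kb and 14.02 against 8.36 at 550 to 600 kb. Counts per pair also fall with distance. Relative to the mean for the distance, the InvF steps up to 300 kb stood at 0.812, 1.87, 1.79, 1.75, 3.53 and 3.84. The next 4 stood at 2.24, 1.75, 1.32 and 0.887. By this measure the first step beyond the border lay above the first 4 steps of the edge block.

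**Figure D4:**
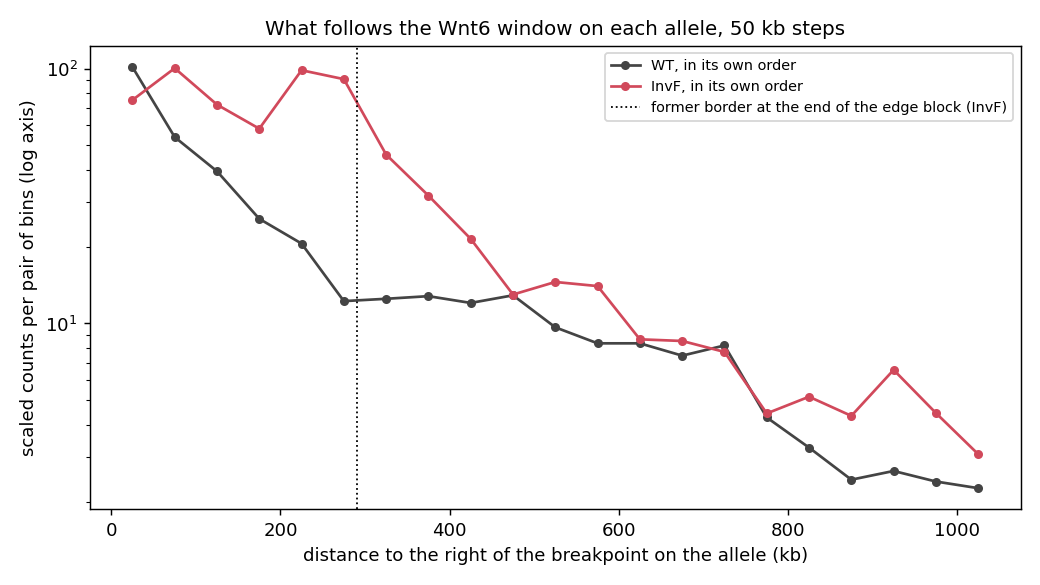
Scaled counts per pair of bins between the Wnt6 window and 50 kb steps to the right of the breakpoint, on a log axis, with each library read in the order of its own allele. InvF stays between 58.1 and 100.3 up to 300 kb and then falls past the former border (dotted line) to 13.0 at 450 to 500 kb, whereas WT falls from 101.4 to 12.2 over the first 300 kb.

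The step at the border was taken over 100 kb on each side. The edge side, from 75610001 to 75710000, had 11355 counts with the window in InvF, against 306 in WT, 395 in DelB and 421 in DelBs. The other side, from 75510001 to 75610000, had 5289 in InvF, against 697 in WT, 955 in DelB and 1065 in DelBs. In InvF the edge side was at 3.43 times the mean for its distance (3.37 to 3.49) and the other side at 2.14 times (2.09 to 2.20). In WT, where the window lies on the other side of the same border, the order was turned, with 0.378 (0.336 to 0.422) on the edge side and 0.768 (0.712 to 0.827) on the other. With coverage in the expected level the order was kept, at 2.58 and 1.35 in InvF and 0.274 and 0.514 in WT. The edge side holds the 4 bins of the local maximum, and in a check chosen after seeing the data it was at 2.40 without them in InvF (2.33 to 2.47). In the 20 kb on each side of the border the levels in InvF were 2.83 (2.70 to 2.97) and 2.58 (2.44 to 2.72), whose intervals overlap. By distance alone, most of the step in InvF therefore came with the bins of the maximum. With coverage, the edge side without them was at 1.98 in InvF, against 1.35 beyond the border, so part of the step remained. Within 20 kb of the border the step was small by distance alone, and a slight overlap of separate intervals does not test it. With coverage the levels there were 2.47 and 1.78.

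The gain was not limited to the edge block. The middle of the inverted interval, from 75120001 to 75610000, keeps its distance to the window as a whole, 300 to 870 kb, because it is turned about its own centre. It had 11329 counts with the window in InvF, against 4871 in WT, 7320 in DelB and 7858 in DelBs, and the ratio of InvF to WT was 1.87 (1.81 to 1.93). Within it the ratio fell from 7.12 at 75550001 to 75600000 (6.34 to 8.01) to 0.660 at 75150001 to 75200000 (0.584 to 0.746). The stretch from 75350001 to 75400000, which lies 500 to 550 kb from the breakpoint in InvF and 520 to 570 kb in WT, was at 1.497 (1.34 to 1.68). The inverted interval without the edge block as a whole, from 74830001 to 75610000, was at 0.613 (0.599 to 0.627).

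The 5 partner bins with the lowest ratio all lay next to the breakpoint, between 74840001 and 74890000. The lowest, 74840001 to 74850000, had 1046 counts with the window in WT and 21 in InvF, a ratio of 0.0161 (0.00995 to 0.0248). Of the 5 highest, all in the edge block, 75850001 had 62.3, 75890001 had 52.0 (29.6 to 101.1), 75650001 had 49.1 (34.4 to 72.4), 75810001 had 48.1 (31.7 to 77.1) and 75640001 had 41.4 (29.9 to 59.01). Their intervals overlap, so their order is not settled.

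The bins at both breaks held sequence of both sides. The bin from 74830001 to 74840000 kept 24.0% of its WT contacts with the window in InvF (357 and 1197 counts), while the next bin kept 1.61%. The same bin had 1594 counts in InvF, against 15 in WT, with the flank from 75900001 to 76000000. At the other end, the bin from 75890001 to 75900000 kept 0.240 of its WT contacts with that right flank, against 0.0195 in the bin before it. Both breaks were therefore not placed more finely than these bins, and the ratio for the inverted interval without the edge block was 0.641 without the left one.

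To the left, the contacts of the window with its nearest 290 kb were close to WT in InvF, and those farther away were lower. With the 290 kb to its left, the window had 19358 counts in InvF, against 15372 in WT, 21046 in DelB and 23946 in DelBs. The ratio to WT was 0.955 in DelB (0.935 to 0.975), 1.04 in DelBs (1.02 to 1.06) and 1.01 in InvF (0.991 to 1.03). Over all partners left of the breakpoint the ratio of InvF to WT was 0.943 (0.929 to 0.957). Leftward partners at 790 to 1160 kb stood at 0.833 (0.766 to 0.907) and those at 1080 to 1650 kb at 0.827 (0.765 to 0.894). Within the nearest 290 kb, the last bin of the window stood at 0.718 (0.654 to 0.788) and the bin before it at 0.843 (0.775 to 0.917), whereas the bin from 74790001 was at 1.14 (1.06 to 1.22). Over all partners left of the breakpoint the value was 0.996 with the scale of total counts and 0.852 with balanced values, and for the nearest 290 kb it was 0.914 with balanced values, so the size of a fall to the left is not settled. Within the window the level was 1.32 times the mean for the distance in WT and 1.27 times in InvF.

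The strongest partners of the window in WT also lay to the left. The bin from 74640001 to 74650000, nearer than 100 kb, stood at 1.96 times the mean in WT with 976 counts. Among partners 100 kb to 2 Mb away, the bins from 74570001 to 74580000 and from 74590001 to 74600000 had the highest levels for their distance in WT, with 634 counts at 1.79 times (1.65 to 1.94) and 658 counts at 1.71 times (1.58 to 1.85). In DelBs the highest were the same 2 bins, with 961 and 1055 counts at 1.83 and 1.86 times. In DelB a bin beyond the deletion, 78380001 to 78390000, came before them, with 64 counts at 1.80 times (1.39 to 2.30). In InvF all of the 5 highest lay in the edge block, led by 75640001 to 75650000 at 6.08 times (5.81 to 6.36), when the bin that holds the left break was left out.

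Contacts with the part of the map between the inversion and the deletions showed no gain like that of the edge block. The stretch from 75900001 to 76390000 had 786 counts with the window in WT and 948 in InvF, a ratio of 0.970 (0.881 to 1.07). Leftward partners at the same distances were at 0.827 (0.765 to 0.894). The interval deleted in DelB, which by published descriptions holds Epha4, had 2601 counts in WT and 2821 in InvF, a ratio of 0.872 (0.827 to 0.920). All partners right of the inversion together were at 0.840 (0.809 to 0.872). In InvF, the window was thus joined to the turned edge block and the sequence behind it.

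Over all partner bins, 46 of the 435 tested bins were over 2-fold higher in InvF (10.6%) and 44 lower (10.1%), against 6.83% and 7.93% of the combinations over the map. Of the 46 higher bins, 29 were the edge block and 15 lay in the rest of the inverted interval. Of the 44 lower bins, 31 lay in the rest of the inverted interval and 5 left of the window. The remaining 2 higher and 8 lower bins lay right of the inversion, where the counts were small.

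Next to the deleted stretch, the summed contacts of the window were higher in the DelB and DelBs libraries than in WT. In DelB and DelBs the window had 1619 and 1755 counts with 75900001 to 76390000, against 786 in WT, at the same distance on all alleles. The ratios to WT were 1.44 in DelB (1.32 to 1.57) and 1.49 in DelBs (1.37 to 1.63). Leftward partners at the same distances of 1080 to 1650 kb stood at 0.981 in DelB (0.913 to 1.06) and 1.02 in DelBs (0.946 to 1.09). Under this scale the stretch next to the deletions thus stood above WT, by more than the edge block at 1.00 and 1.04. Of 42 tested bins in this stretch, 6 were over 2-fold higher in DelB (14.3%) and 5 in DelBs (11.9%). These shares were near those of the map, 11.9% in DelB and 10.7% in DelBs.

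Beyond the deletions, from 78060001 to 81000000, the window had 4021 counts in DelB and 3729 in DelBs, against 1907 in WT and 1760 in InvF. This came to 1.47 times WT in DelB (1.39 to 1.55), 1.31 times in DelBs (1.24 to 1.38) and 0.742 times in InvF (0.695 to 0.792). The deletions bring this stretch nearer to the window by 1670 kb and 1470 kb. Over all partner bins, 33 of 469 tested bins were higher and 1 lower in DelB (7.04% and 0.213%), and 27 of 466 were higher and 0 lower in DelBs (5.79%). Both shares of higher bins lay below those of the map, 11.9% and 10.7%. Within the stretch that both deletions remove, the window kept 81 counts in DelB and 45 in DelBs, against 2337 in WT, which is a ratio of 0.0242 (0.0191 to 0.0302) and 0.0129 (0.00936 to 0.0173).

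Windows of 100 kb farther to the left gained the edge block as well, by less. The Wnt6 window led with 29914 counts in InvF and 769 in WT. The next window, from 74630001 to 74730000, had 10140 and 452 counts and a ratio of 18.0 (16.4 to 19.9), and the one after it 6725 and 440 counts and a ratio of 12.3 (11.2 to 13.6). The ratio was 5.07 at 500 kb from the breakpoint and 1.17 at 1000 kb (1.04 to 1.32), and it was higher again at 1600 kb (1.84, 1.59 to 2.12) and 2100 kb (1.80, 1.53 to 2.12). For their distance, the first 3 windows stood at 1.81, 1.02 (0.997 to 1.04) and 0.913 (0.891 to 0.935) times the mean. The intervals of the ratio do not overlap between neighbours among the first 4 windows.

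The local maximum at 75630001 to 75670000 was also present in these windows. The window from 74630001 met it at 2.43 times the mean (2.33 to 2.53) and the rest of the edge block at 0.867 times, and the window from 74530001 at 1.93 times (1.83 to 2.03) and 0.795 times. The maximum is thus shared by neighbouring windows and is highest for the Wnt6 window. In their change from WT to InvF over partner blocks of 100 kb, the windows most like the Wnt6 window were 74630001 to 74730000 (Pearson r of log2 ratios 0.95 over 97 blocks), 74530001 to 74630000 (0.94 over 97 blocks) and 74330001 to 74430000 (0.90 over 96 blocks), of 98 windows compared. The blocks share libraries and neighbours, so these are descriptions.

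**Figure D5:**
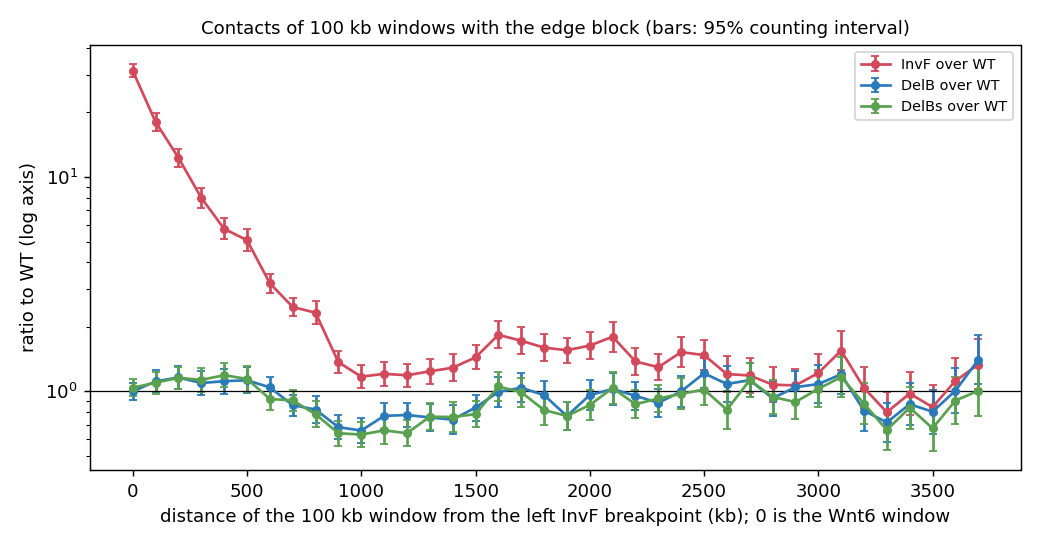
Ratio to WT of the contacts between 100 kb windows and the edge block, on a log axis, against the distance of the window from the left InvF breakpoint, with 95% counting intervals. The Wnt6 window (at 0) has the highest InvF ratio, 31.3, which falls to 1.17 at 1000 kb and stands at 1.84 at 1600 kb, while DelB and DelBs lie between 0.629 (DelBs at 1000 kb) and 1.40 (DelB at 3700 kb).

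The authors' deposited table for InvF compares it with WT on a scale that the sources used here do not give. In this deposited table of the authors, 245 of the 289 values between the window and the edge block were above 0 and 0 were below, with a median of 8.34 and a highest value of 52.2. In the same deposited table, 128 of the 289 values between the window and the first 290 kb of the inverted interval were below 0 and 0 above. Over the inverted interval without the edge block, 116 of 779 values were above 0 and 128 below. The shares of values above and below 0 over the whole deposited table were not counted, so these counts have no background. In the authors' deposited tables for DelB and DelBs all 289 values of the edge block were 0, and so were all 490 values of 75900001 to 76390000, where the counts gave ratios of 1.44 and 1.49.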

How the data were processed

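Capture Hi-C was done on 4 genotypes with 1 library each. Bowtie2 2.2.6 and the build mm9 are named per the submitters' processing notes. What the authors deposited as raw maps are counts of read pairs, summed by 10 kb bin on both sides, and per the file names a mapping quality of 30 was required. The deposited balanced maps hold a signal made by the authors with KR balancing, per the file names, which evens out the coverage of bins. The deposited difference maps hold a score, the making of which the sources used here do not state, and only its sign and size are described. Removal of PCR duplicates is not given either, so intervals treat counts as independent.

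Python 3.11.15 was used with scipy 1.17.1, pandas 2.3.3 and numpy 2.4.6, and figures were drawn with matplotlib 3.10.9. Scaling used pairs 20 kb to 2 Mb apart on 1 side of every rearrangement, including pairs of the window with sequence to its left. Ratios have exact conditional binomial intervals, shares exact (Clopper-Pearson) ones, levels for the distance exact Poisson ones and ratios of ratios log-normal ones, all at 95%. Levels for the distance are given up to 2 Mb and do not correct for coverage unless stated. Coverage was the total of each bin in the same library. Calls needed 20 counts and over 2-fold, with a pseudocount of 1. The functions were tested on a simulated inversion with the decay and coverage of WT, no domains and no excess, where the scaled ratio was recovered. There the level of the edge block was 1.46 by distance alone and 0.804 with the coverage of both bins. Partner classes, the bins of the window, the 5 highest and 5 lowest partner bins and the 3 most alike windows were named by rule. The members and the rules were chosen with earlier results of these data known. Gene names and the promoter come from the GRCm38 RefSeq tables.
The scale, the balanced values, the window, the least distance, the edge block, the break positions and the call limits were varied as alternatives.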

Additional observations from a re-analysis of the deposited data

How the results depend on the processing

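Of 59 alternative values for 11 results, 26 stayed within the counting interval or 1.5 times the count and 33 moved. A change of direction was scored only where the main interval excluded 1, and 0 were found. It could not be scored for DelB and DelBs over WT with the edge block, the share or the counts of bins. InvF over WT with the edge block was 40.3 with the 50 kb next to the breakpoint as the window and 30.5 with balanced values. Set against all other partners it was 41.2 with balanced values and 52.7 with the 50 kb window. DelB and DelBs over WT with the edge block were 1.33 and 1.38 with the scale of total counts. With that scale the rest of the inverted interval was at 0.647, partners to the right at 0.887 and partners to the left at 0.996. With balanced values these were 0.517, 0.770 and 0.852. With the 50 kb window the rest of the inverted interval was at 0.524 and partners to the left at 0.909. The rest of the inverted interval was at 0.683 with pairs at least 50 kb apart and, in a check chosen after seeing the data, 0.641 without the bin at the left break.

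The level of the edge block for its distance in InvF was 1.39 with balanced values, 2.13 with the 50 kb window, 1.93 at 50 kb or more, 2.34 without the 50 kb next to the junction, 1.73 with all pairs in the expected level, 1.23 with coverage, and 1.76 or 1.98 with the right break moved by 1 bin. In checks chosen after seeing the data it was 1.92 without the bin at the right break and 1.54 without the 40 kb of the local maximum. The share of the window's counts in the edge block was 32.6% with balanced values, 41.2% with the 50 kb window, 36.8% at 50 kb or more and 29.2% without the 50 kb next to the junction. The 44 lower bins became 100 at a limit of 1.5-fold and 29 with at least 50 counts; without a minimum count 70 were higher and 122 lower. The cause of these shifts was not tested. No paired analysis was possible because each genotype has 1 library. Depth limits distant partners: the 510 bins right of the inversion shared 5294 counts with the window in WT.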
